A study of Mus musculus with 22 samples.

Results

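The RNA of 22 single cultured mouse astrocytes was read for 10 genes that mark astrocytes outside the cytoskeleton and outside glutamate uptake. The genes, taken by their symbols, were Aqp4, Aldh1l1, S100b, Aldoc, Fgfr3, Sparcl1, Slc4a4, Mlc1, Gpr37l1 and Atp1b2, and all 10 were among the 23453 genes of the count table. The cells came from the cortex of C57BL/6 pups aged P0-P1. All of them, the non-responsive ones included, had been exposed to EtOH during calcium imaging, and each was classed by its calcium response before its RNA was collected. There were 6 S-type cells with a slow rise and decay of calcium, 6 T-type cells with a transient rise, 5 M-type cells with a mixed response and 5 non-responsive cells, called NR. The cultures had been shaken and treated with cytosine arabinoside to remove other cells, and serum was withdrawn before imaging. Cells are named here by their type and by a number in the order of their accession. No label says which animal or culture a cell came from, so a type is treated as 1 sample, and levels are described without tests, p-values or standard errors.

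Astrocytes tile the brain, clear ions, water and transmitter from the space around synapses, and cover blood vessels with endfeet. The 10 genes serve different sides of that work. Aqp4 encodes the water channel of the endfeet, Slc4a4 an electrogenic sodium bicarbonate cotransporter, Atp1b2 a beta subunit of the sodium pump that also acts in adhesion, and Mlc1 a membrane protein of endfeet that is mutated in a leukoencephalopathy with cysts. Aldh1l1 encodes a folate enzyme and Aldoc the aldolase isoform of the brain, both in use as pan-astrocyte markers. Fgfr3 is a receptor of fibroblast growth factors, Gpr37l1 an orphan receptor of glia, Sparcl1 a secreted matrix protein that promotes synapses, and S100b a small calcium-binding protein that is also released from astrocytes.

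S100b and Gpr37l1 varied most between cells, and the 250 bases before the start of each are shown for that reason. Both stretches lie outside the gene and hold no annotated exon of it. They come from RefSeq (GRCm38.p6), 5′ to 3′ on the strand of the gene, from chr10:76253586-76253835 (plus strand) for S100b and from chr1:135167682-135167931 (minus strand) for Gpr37l1. Capitals mark a match to 1 of 4 motifs that were searched on both strands.
S100b: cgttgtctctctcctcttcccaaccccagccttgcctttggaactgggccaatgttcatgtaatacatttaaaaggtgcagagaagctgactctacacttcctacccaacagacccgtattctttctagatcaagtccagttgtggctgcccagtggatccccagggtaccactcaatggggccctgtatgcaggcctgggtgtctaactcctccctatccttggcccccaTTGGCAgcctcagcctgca
Gpr37l1: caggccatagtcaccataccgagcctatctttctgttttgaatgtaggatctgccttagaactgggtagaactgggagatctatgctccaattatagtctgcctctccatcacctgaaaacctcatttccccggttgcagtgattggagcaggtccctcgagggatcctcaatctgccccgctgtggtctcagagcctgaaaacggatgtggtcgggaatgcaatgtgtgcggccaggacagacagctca
The capitals in S100b are the motif of NFI factors, TTGGCA, which begins 19 bases before the start, and Gpr37l1 held none of the 4 motifs. The table of promoters, each 250 bases before to 50 after a start, held 10 promoters for 7 of the 10 genes. TTGGCA was found in 2 of these 10, 1 of S100b and 1 of Aldoc, and in 14.1% of all 32851 promoters. The STAT motif TTCNNNGAA was found in 1 of the 10, the second promoter of Aldoc, and in 8.3% of all. The SOX motif ACAAAG and the TATA box TATAAA were in none of the 10, against 18.7% and 13.6% of all promoters. These matches describe the letters of the windows only.

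Astrocyte identity RNA was present in nearly every cell. Each cell had reads of 9 or 10 of the 10 genes, and 7 of the 10 (Aqp4, Aldh1l1, Fgfr3, Sparcl1, Slc4a4, Mlc1 and Atp1b2) had a read in all 22 cells, against 28.85% of the 12719 genes that had a read in at least 5 cells. Aldoc lacked reads in M-type cell 1 alone, Gpr37l1 in T-type cell 4 alone, and S100b was read in 16 of the 22 cells. When every cell was thinned to 2937786 reads, the depth of the smallest library, Fgfr3, Slc4a4, Mlc1 and Atp1b2 still had a read in all 22 cells, Gpr37l1 in 18 and S100b in 15. A gene with 0 reads in a cell was not detectable at that depth, since a count of 0 allows up to 3 reads.

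The 10 genes together took between 0.0487% of the reads of a cell, in T-type cell 2, and 0.624%, in NR cell 2. The lowest, median and highest S-type cells had 0.120%, 0.207% and 0.460% of their reads on the 10 genes, and the T-type cells 0.0487%, 0.116% and 0.457%. The 5 M-type cells had 0.104%, 0.232%, 0.144%, 0.455% and 0.249%, and the 5 NR cells 0.346%, 0.624%, 0.201%, 0.0949% and 0.497%. The mean was highest in NR (0.353%), followed by S-type (0.256%), M-type (0.237%) and T-type (0.160%), and the cells of all 4 types overlapped. Without T-type cell 3, which had the fewest reads of any cell and stood well above the other T-type cells, the T-type mean was 0.100%.

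**Figure D1:**
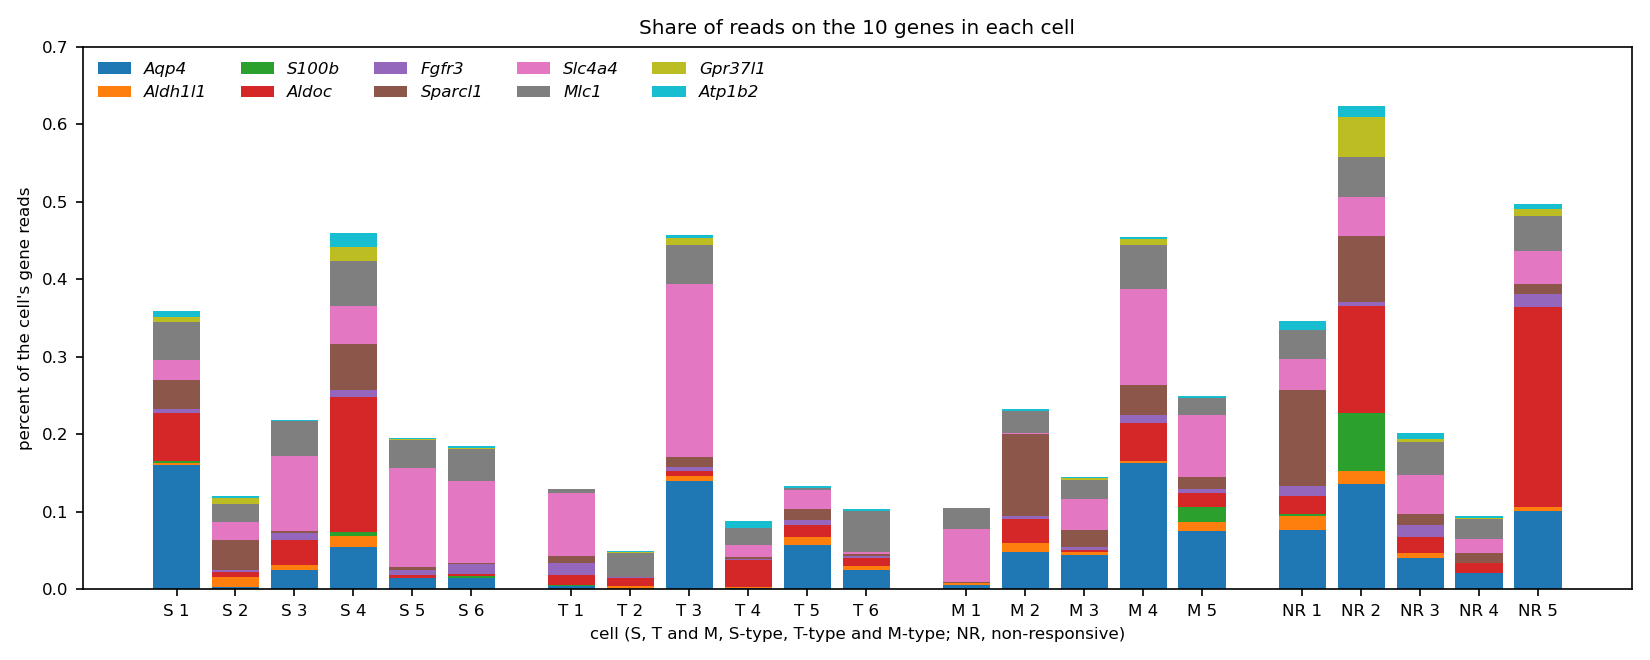
Percent of the gene reads of each cell (vertical axis) that fell on the 10 genes, stacked by gene, for the 22 cells (horizontal axis) ordered by type. The stacks run from 0.0487% in T-type cell 2 to 0.624% in NR cell 2, and the gene with the largest part differs from cell to cell within a type.

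Which gene led also differed between cells of 1 type. In the S-type, Aqp4 took 44.6% of the reads of the 10 genes in cell 1, Sparcl1 32.6% in cell 2, Aldoc 37.8% in cell 4 and Slc4a4 65.9% in cell 5. In NR, Sparcl1 led in cell 1, Aldoc in cells 2 and 5 (22.1% and 52.0%), Slc4a4 in cell 3 and Mlc1 in cell 4. In T-type cells 2 and 6 Mlc1 took 62.5% and 50.2%.

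The depth of the libraries and the markers of other cell types are given for reference. Libraries held 2937786 to 22131076 gene reads (median 16965582) and 6319 to 13070 genes with a read. T-type cells 2 and 3 had the smallest size factors, 0.276 and 0.183, so a read of theirs weighs more in a normalized count, which is the count divided by the size factor of the cell. Markers of oligodendrocytes, neurons and endothelium included several at 0 in every cell (Sox10, Gpr17, Slc17a7, Cldn5, Cdh5 and Tie1). Other genes of these lists had many reads. The endothelial list of 12 genes, led by Kdr, Flt1 and Esam, took at most 0.0200% of the reads of any cell. Kdr had a mean normalized count of 16.9 in the S-type, 471 in the T-type, 17.9 in the M-type and 8.86 in NR. The oligodendrocyte lineage list, led by Olig1, Olig2 and Pdgfra, took 0.00340% to 0.333% and was highest in T-type cell 3. The neuron list, led by Stmn2, Map2 and Tubb3, took 0.00381% to 0.208%. Olig1 had a mean normalized count of 5492 in the S-type, 16819 in the T-type, 8352.5 in the M-type and 4126 in NR. For Stmn2 it was 7330 in the S-type, 651 in the T-type, 2415 in the M-type and 1459 in NR. The microglia list, led by Laptm5, Mpeg1 and Ctss, had reads of all 18 of its genes, with P2ry12 at 0 in every S-type, M-type and NR cell. Its share ranged from 0% to 0.00096% in the S-type, from 0% to 0.0142% in the T-type, from 4.2e-05% to 0.00049% in the M-type and from 7.92e-05% to 0.0263% in NR. The list of mural cells and fibroblasts ranged from 0.0568% to 0.973%, from 0.0115% to 0.520%, from 0.00636% to 0.322% and from 0.0220% to 0.218% in the same order. Of its 13 genes 11 were read, led by Acta2, Tagln and Col1a2, with Rgs5 and Myh11 at 0 throughout. The mean normalized count of Acta2 was 23281 in the S-type, 32297 in the T-type, 14718 in the M-type and 5499 in NR. The proliferation list, led by Pcna, Rrm2 and Top2a, had reads of all 19 genes. It took 0.0137% to 1.05% of the reads in the S-type (median 0.0985%) and 0.0102% to 0.707% in the T-type (median 0.0734%). In the M-type it took 0.0145% to 0.232% (median 0.0367%) and in NR 0.0217% to 0.0520% (median 0.0374%).

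In the levels of the 4 types, where a level is the mean of the normalized counts over the cells of a type, 8 of the 10 genes were highest in NR. Of all 12719 genes, 26.6% were highest in NR. The exceptions were Slc4a4 and Mlc1, which were highest in the T-type by these size factors and in the S-type when counts were scaled to the total reads of a cell (CPM). When the median over cells replaced the mean, 4 of the 10 genes (Aqp4, Aldoc, Fgfr3 and Atp1b2) were highest in NR, so the 8 rested in part on single NR cells. Leaving out 1 cell at a time gave 6 to 9: the count was 6 without NR cell 1, 6 without NR cell 2 and 6 without NR cell 5. The microglia list moved the same way, with 14 of its 15 genes past the filter highest in NR, while none of the 19 proliferation genes and 2 of 9 mural and fibroblast genes were. The part of these lists in the result was not tested. In NR cells 1 to 5 the share of microglia reads was 0.0106%, 0.0132%, 0.000345%, 0.0263% and 7.92e-05%. The share of the 10 genes in the same cells was 0.346%, 0.624%, 0.201%, 0.0949% and 0.497%.

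**Figure D2:**
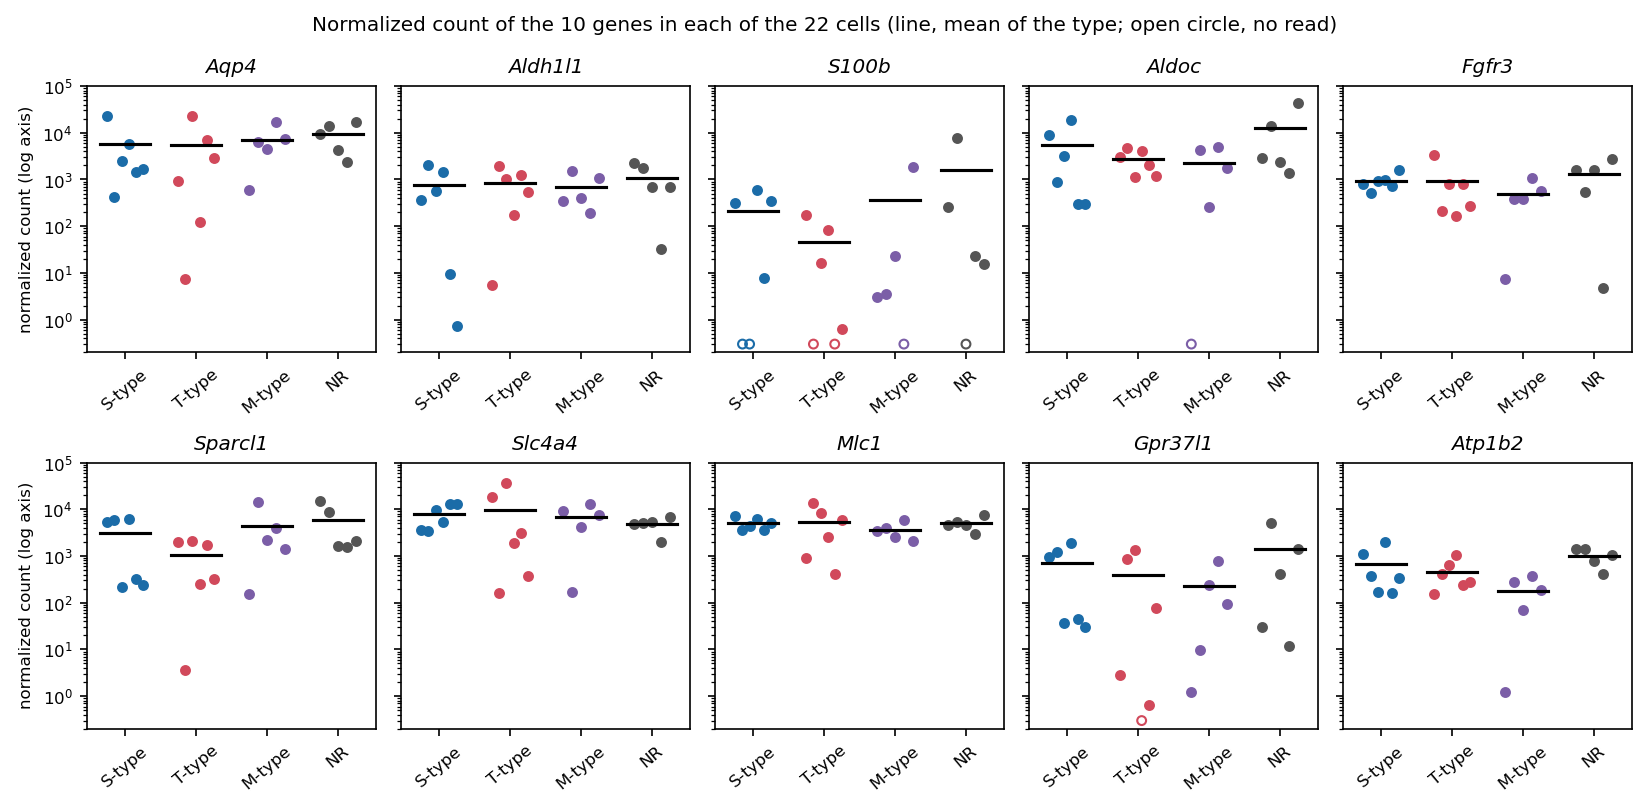
Normalized count (log axis) of each of the 10 genes in every cell, with 1 panel per gene, types on the horizontal axis, a line at the mean of the type and open circles for cells with no read, drawn at the foot of the panel. The cells of the types overlap in every panel except M-type and NR for Atp1b2, and Mlc1 spans the narrowest range.

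The transport genes of the endfoot and membrane differed in their order. Aqp4 had levels of 9217 in NR, 7090 in the M-type, 5787 in the S-type and 5551 in the T-type. The NR cells read 9170, 13671, 4318, 2306 and 16619, the M-type cells 604, 6401, 4502, 16721 and 7223. The lowest, median and highest S-type cells read 419, 2076 and 22853, and the T-type cells 7.25, 1872 and 22309. Neighbouring types overlapped throughout: S-type cell 1 and T-type cell 3 gave 65.8% and 67.0% of the summed level of their types, and each exceeded every NR cell. T-type cell 2, the lowest of the 22 cells, had 2 reads of Aqp4.

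Slc4a4 ran the other way, with levels of 9829 in the T-type, 7898 in the S-type, 6724 in the M-type and 4805 in NR. The T-type cells spanned 163.2, 2465 and 35673 (lowest, median, highest), and the S-type cells 3413, 7511 and 12697. The M-type cells read 8947, 165.9, 4119, 12742 and 7646. The NR cells, at 4745, 4986, 5415, 2002 and 6880, had the narrowest range, with no cell near the low values of T-type cells 2 and 6 or M-type cell 2. The T-type held both the highest and the lowest of the 22 cells, and without T-type cell 3 the level of the T-type was below that of the S-type.

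Mlc1 was the most even of the 10 genes. Its levels were 5308 in the T-type, 5001 in NR, 4979 in the S-type and 3543 in the M-type, and the SD of log2(normalized count + 1) over the 22 cells was 1.08, against a median of 2.62 over all 12719 genes. The S-type cells spanned 3577, 4713 and 7104, and the NR cells read 4534, 5311, 4633, 2958 and 7568. The M-type cells read 3383, 3902, 2576, 5749 and 2105, while the T-type cells spanned 421, 4266 and 13890. T-type cells alone reached outside the range of the other types.

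Atp1b2 gave the clearest separation. The NR cells read 1425, 1434, 768, 419 and 1037 (level 1017), and the M-type cells 1.25, 278, 69.9, 365 and 187.1 (level 180). Every NR cell was above every M-type cell, by normalized count and by CPM (lowest NR cell 37.2, highest M-type cell 35.7), though the gap was small; of all genes, 0.598% had M-type and NR cells that did not overlap. The S-type cells spanned 158, 352 and 1982 (level 687) and the T-type cells 156.2, 337 and 1063 (level 460), and both overlapped with NR and with the M-type.

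Among the enzymes, Aldoc had the highest level of any of the 10 genes in a single type. Its NR level was 12571, from cells at 2873, 13884, 2333, 1364 and 42403, and cell 5 gave 67.5% of it. The S-type level was 5353 (lowest, median and highest cells 303, 2029 and 18650), the T-type level 2716 (1156, 2521 and 4744) and the M-type level 2240 (cells at 0, 4216, 259, 5010 and 1717). The medians of the types lay between 1717 and 2873, so the types differed mainly in their highest cells.

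Aldh1l1 differed by less than 2-fold between types in its levels. These were 1078 in NR, 823 in the T-type, 743 in the S-type and 706 in the M-type. The NR cells read 2270, 1727, 682, 32.9 and 679 and the M-type cells 350, 1505, 393, 189 and 1091. The S-type cells spanned 0.742, 467 and 2044 and the T-type cells 5.63, 793 and 1947, so the medians ran from 393 in the M-type to 793 in the T-type. With geometric means over cells the log2 ratio of Aldh1l1 was −1.94 in S-type versus NR and 1.19 in T-type versus S-type. Single cells with almost no Aldh1l1 (1 read in S-type cell 6, 4 reads in T-type cell 1) stood beside cells of the same type with up to 1889 reads. Of its exon bases, 11.05% are shared with an antisense gene, Gm15756, and 13.9% of those of Fgfr3 with G630022F23Rik, and whether counting used the strand is not stated.

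Of the receptors, Fgfr3 was even in the S-type and uneven elsewhere. The S-type cells spanned 525, 869 and 1564 (level 924). The T-type level of 939 came to 60.7% from cell 1, with cells spanning 162.3, 523 and 3419. The NR cells read 1581, 550, 1611, 4.78 and 2751 (level 1300) and the M-type cells 7.51, 379, 380, 1097 and 558 (level 484). Both M-type cell 1 and NR cell 4 had almost no Fgfr3, with 12 and 8 reads.

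Gpr37l1 was spread widely between the cells of each type. The NR cells read 30.4, 5149, 414, 12.0 and 1389 (level 1399) and the M-type cells 1.25, 9.80, 237, 766 and 95.9 (level 222). The S-type cells spanned 30.4, 495 and 1931 (level 699) and the T-type cells 0, 39.5 and 1375 (level 383). The 2 highest cells, NR cell 2 and S-type cell 4, held 60.7% of all reads of the gene by count, and the SD on the log2 scale was 3.69.

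The secreted proteins were uneven within types. Sparcl1 had levels of 5789 in NR, 4354 in the M-type, 3073 in the S-type and 1064 in the T-type. The NR cells read 15002, 8640, 1609, 1569 and 2127 and the M-type cells 154.5, 14106, 2170, 3947 and 1395. The S-type cells split into 3 at 5348, 6024 and 6287 and 3 at 221, 317 and 243, while the T-type cells spanned 3.63, 1015 and 2116. The highest T-type cell was below the 3 high S-type cells and within the range of NR.

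S100b was concentrated in 2 cells. NR cell 2 had 13286 reads and M-type cell 5 had 4185, together 88.7% of the 19699 reads of S100b in the study. By normalized count the NR cells read 260, 7536, 0, 22.7 and 15.8 (level 1567) and the M-type cells 3.13, 3.50, 22.97, 0 and 1808 (level 368). The S-type cells spanned 0, 160 and 609 (level 211) and the T-type cells 0, 8.50 and 171.7 (level 45.1). The order of the levels, NR over M-type over S-type over T-type, was not that of the medians, which was highest in the S-type.

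The contrasts between types were described by the log2 ratio of the levels, with 2-fold as the limit. In T-type versus S-type, 2 of the 10 genes were more than 2-fold lower and none more than 2-fold higher, where 32.2% of all 12719 genes were lower, 26.0% higher and 58.2% past 2-fold in either direction. The 2 genes were S100b, lower by 4.69-fold (log2 ratio −2.23, 95% counting interval −2.465 to −1.999), and Sparcl1, lower by 2.89-fold (−1.53, −1.58 to −1.49). Both remained past 2-fold with any 1 cell left out (−3.42 to −1.55 for S100b, −1.85 to −1.19 for Sparcl1), yet the cells of the types overlapped for all 10 genes, and 0.771% of all genes had cells that did not. The median log2 ratio was −0.32 over the 10 genes and −0.07 over all genes, and with 1 cell left out the former ranged from −0.79 (without T-type cell 3) to 0.026 (without S-type cell 4). The number past 2-fold was 6 of 10, all lower in the T-type, with CPM of the pooled reads, and likewise to 6 without T-type cells 2 and 3. Intervals cover counting error only, since amplified reads of a library without molecular identifiers can copy 1 molecule.

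In T-type versus NR, 5 genes were more than 2-fold lower (S100b, Aldoc, Sparcl1, Gpr37l1 and Atp1b2) and 1 was higher (Slc4a4). For all genes the shares were 32.4% lower, 28.6% higher and 61.0% in either direction, and 0.991% had cells that did not overlap, none of the 10 genes among them. Sparcl1 was 5.44-fold lower (log2 ratio −2.44) and was past 2-fold with any 1 cell left out (−2.76 to −1.71). S100b was 34.7-fold lower (−5.12), but this became −0.72 without NR cell 2. Gpr37l1 went from −1.87 to −0.27 without NR cell 2, and Aldoc from −2.21 to −0.91 without NR cell 5. Slc4a4, at 1.03, became −0.04 without T-type cell 3. Atp1b2 was 2.21-fold lower (−1.14), between −1.58 and −0.96 with 1 cell left out. The median over the 10 genes was −0.94, against −0.05 over all genes, and it stayed between −1.65 and −0.60 with 1 cell left out. With geometric means over cells it was −1.28, but the median over all genes was then −1.085, so the 10 genes stood closer to all genes.

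In S-type versus NR, 3 of the 10 genes were more than 2-fold lower (S100b, Aldoc and Gpr37l1) and none higher. Of all genes 22.4% were lower, 25.1% higher and 47.5% past 2-fold in either direction. Gpr37l1 lay at the limit itself (−1.0003), and each of the 3 changed its sign without 1 NR cell: S100b went from −2.89 to 1.504 and Gpr37l1 to 0.60 without NR cell 2, and Aldoc from −1.23 to 0.07 without NR cell 5. The count without 1 cell ran from 1 to 5, with 1 without S-type cell 5 or S-type cell 6 and 5 without S-type cell 1, 2 or 4. Slc4a4 was higher in the S-type by 0.72 (0.52 to 0.88 with 1 cell left out), under the limit, and Mlc1 was level at −0.01. The median was −0.62 over the 10 genes (−1.05 to −0.35 with 1 cell left out) and 0.03 over all genes. No gene of the 10 had S-type and NR cells apart, against 0.409% of all genes.

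In M-type versus NR, 5 genes were more than 2-fold lower (S100b, Aldoc, Fgfr3, Gpr37l1 and Atp1b2) and none higher, where 28.1% of all genes were lower, 19.8% higher and 47.9% past 2-fold in either direction. Atp1b2 was 5.64-fold lower (log2 ratio −2.50, 95% counting interval −2.57 to −2.42) and lay between −2.92 and −2.18 with any 1 cell left out, the only one of these 5 with cells apart. Gpr37l1 (−2.66) and Aldoc (−2.49) also stayed past 2-fold with any 1 cell left out, at no more than −1.05 and −1.19, while Fgfr3 (−1.42) reached −0.95 without NR cell 5. With medians over cells Aldoc was at −0.74, within 2-fold. S100b, at −2.09, ranged from −7.73 without M-type cell 5 to 2.30 without NR cell 2. The median was −1.02 over the 10 genes (−1.47 to −0.43 with 1 cell left out) and −0.20 over all genes. In the contrasts with NR the same 5 cells stand on one side, so these 3 sets of ratios are not independent of each other. The microglia list was lower in each of the 3 types than in NR (median log2 ratio −2.25 for the T-type, −6.21 for the S-type and −6.09 for the M-type over 15 genes), and the proliferation list was higher (1.93, 5.11 and 1.58 over 19 genes). The proliferation ratios, taken from means over cells, do not hold for every cell. By the median share of reads on that list the M-type (0.0367%) was not above NR (0.0374%). Each of the 3 types also had a cell below the lowest NR cell (0.0217%). The part of both lists in the ratios of the 10 genes was not tested.

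**Figure D3:**
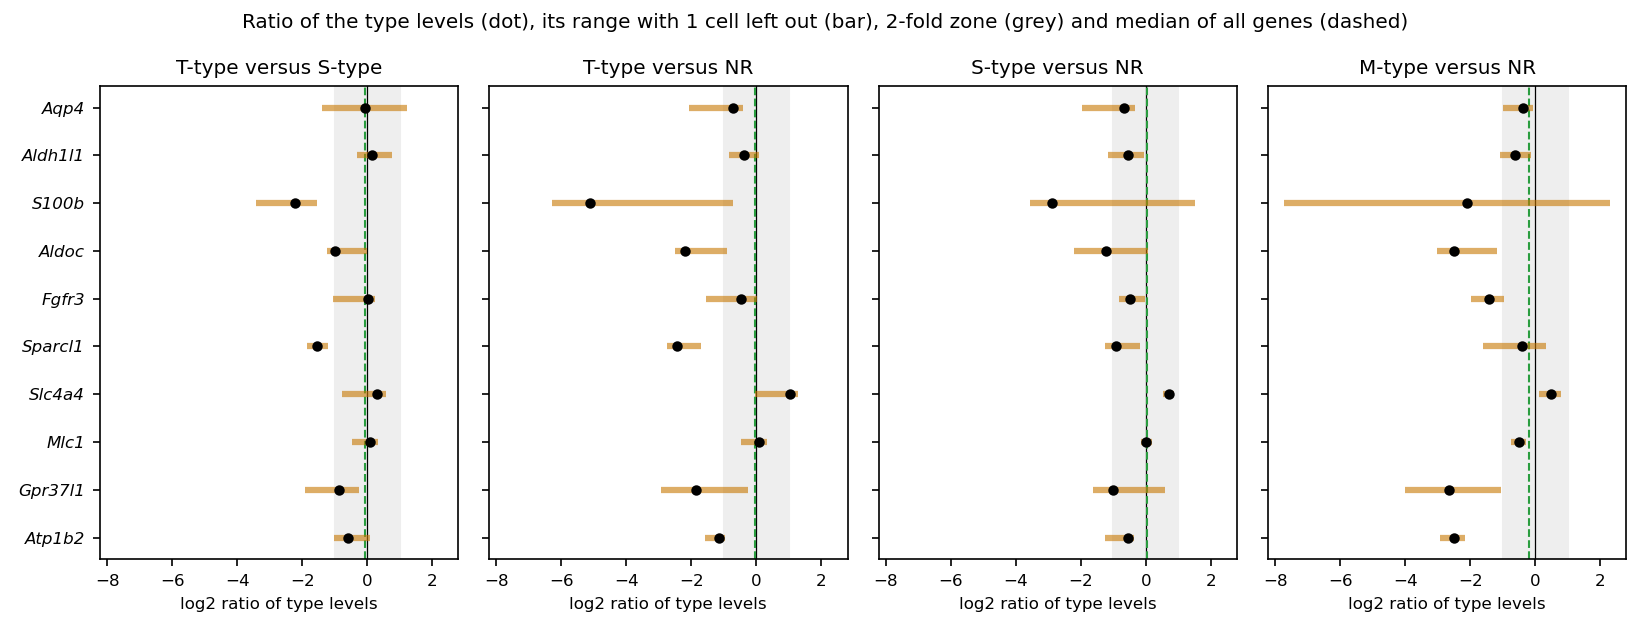
Log2 ratio of the type levels (horizontal axis) for each gene (vertical axis) in the 4 contrasts, with the range when 1 cell is left out (bars), the zone within 2-fold (grey) and the median over all genes (dashed line). Sparcl1 in T-type versus S-type and Atp1b2 in M-type versus NR lie outside the grey zone over their whole bars, while the bars of S100b in S-type and M-type versus NR cross 0.

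Other astrocyte genes were counted from lists. Of the 27 genes of a wider astrocyte list that passed the filter, 12 were highest in NR, beside 26.6% of all genes. In T-type versus NR, 10 of the 27 were more than 2-fold lower and 5 higher, beside 32.4% and 28.6% of all genes. The 3 with the most reads were Cst3, Gpm6b and Dbi. Of 15 partners of Aqp4 and Mlc1 at the endfoot, such as the potassium channel gene Kcnj10, agrin (Agrn) and dystroglycan (Dag1), 6 were highest in NR, beside the same 26.6%. The genes of glutamate uptake split. Slc1a2 had levels of 10271 in NR, 3610 in the S-type, 2871 in the M-type and 298 in the T-type. Of these values 54.4% came from NR cell 5, 74.3% from S-type cell 4, 59.0% from M-type cell 2 and 97.3% from T-type cell 3. Slc1a3 and Glul were instead highest in the T-type (20006 and 13739), with 54.9% and 69.8% of these values from 1 T-type cell each. By CPM and by the median over cells, Slc1a3 and Glul were highest in the S-type.

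Across the 22 cells most pairs of the 10 genes were correlated above 0, and by its median Slc4a4 was the least correlated with the other genes. Of the 45 pairs, 38 (84.4%) had a Spearman correlation above 0 and the median was 0.30, beside 57.2% and 0.04 over all pairs of the 11845 genes with a mean normalized count of at least 10. The 10 genes had means of 510 (S100b) or more, so these other genes were not matched to them in level or detection. The closest pairs were Mlc1 and Gpr37l1 (0.71), Aldoc and Atp1b2 (0.63), Aqp4 and Sparcl1 (0.61) and Fgfr3 and Slc4a4 (0.59). Slc4a4 had a median correlation of 0.01 with the other genes, and its value with Aldh1l1 was the lowest of all pairs (−0.40). These are descriptions over cells that share a size factor within each library and come from 4 types. Mlc1 and Gpr37l1, the closest pair, were among the most and the least even of the 10 genes, so their cells followed a similar order over very different ranges.

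**Figure D4:**
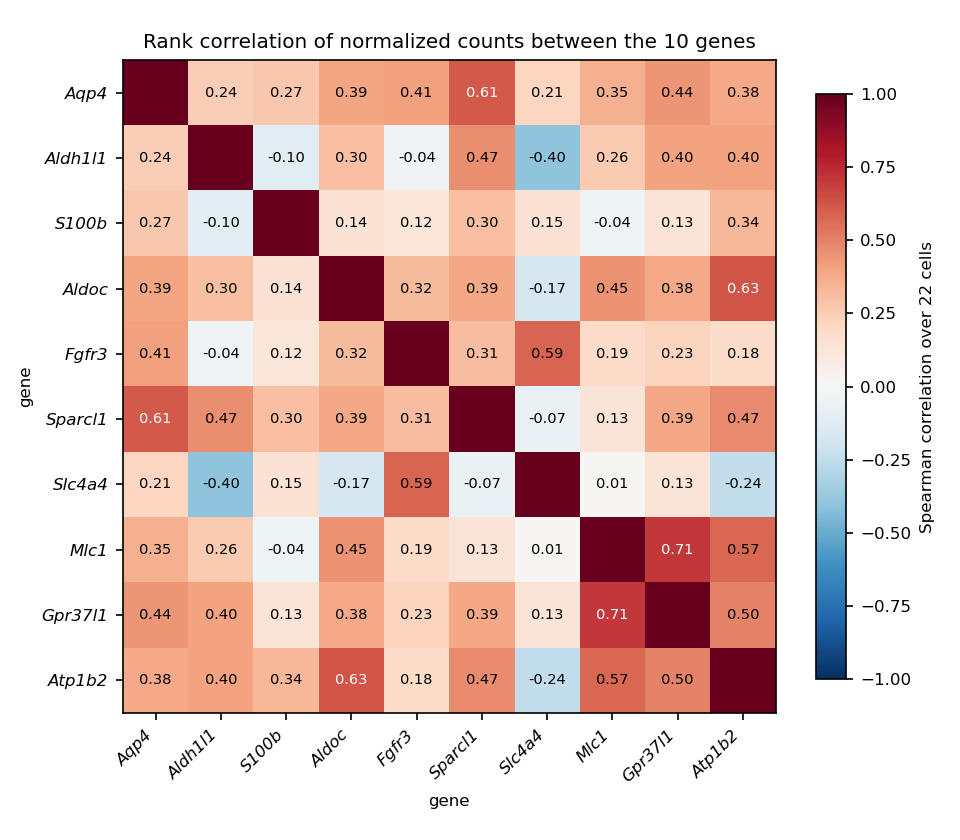
Spearman correlation of normalized counts over the 22 cells for each pair of the 10 genes (both axes list the genes, colour and printed value give the correlation). Most squares are above 0, the highest is Mlc1 with Gpr37l1 (0.71), and the lowest is Slc4a4 with Aldh1l1 (−0.40).

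The genes most like the summed normalized counts of the 10 genes, among 10483 others with a mean of at least 10 and a read in at least 11 cells, were Ptprf (Spearman 0.79), Slc1a2 (0.76), Scd1 (0.76), Atp1b1 (0.72) and Bcan (0.71). Ptprf encodes a receptor tyrosine phosphatase, Scd1 a fatty acid desaturase, Atp1b1 another beta subunit of the sodium pump and Bcan the matrix proteoglycan brevican. The share of reads on the 10 genes had a Spearman correlation over the 22 cells of 0.74 with the share on glutamate uptake genes, 0.71 with endfoot partners and 0.54 with the wider astrocyte list. It had −0.22 with intermediate filament genes, −0.37 with mural and fibroblast genes, −0.27 with microglia genes and −0.21 with endothelial genes, but 0.59 with the relatives of the 10 genes, 0.44 with genes of immature glia, 0.32 with oligodendrocyte lineage genes, 0.23 with neuron genes and 0.04 with proliferation genes. With the number of genes with a read it was 0.37, with the size factor 0.16 and with total reads 0.06.

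Set beside their relatives per exon length, as reads scaled to the length of all exon bases and to the total reads of the cell (RPKM), some of the 10 genes led their family and others did not. Aqp4 (mean 88.0 RPKM over the 22 cells) was above Aqp9 and Aqp11 in every cell, and Aqp1 had no read. Gpr37l1 (23.9) was above Gpr37 in 21 cells, Gpr37 having a read in 1 cell, and Aldh1l1 (14.1) was above its mitochondrial relative Aldh1l2 (1.97) in 21. Slc4a4 (54.2) was above Slc4a7 (8.79), the highest of 5 other Slc4 genes that were compared, in 19 cells.

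By contrast Atp1b2 (11.7 RPKM) was below Atp1b1 (283) and Atp1b3 (345) in all 22 cells. Fgfr3 (9.68) was below Fgfr2 (45.4) in 20 cells and below Fgfr1 (13.7) in 17. Sparcl1 (95.4) was below Sparc (410) in 20 cells, and S100b (33.3, median 0.668) below S100a6 (226) in 20. Aldoc (129, median 52.8) and Aldoa (64.3, median 62.7), the aldolase of most tissues, changed places from cell to cell: Aldoc was the higher in 10 cells, or in 7 when length was that of the longest coding transcript. Among the 10 genes Aldoc and Mlc1 had the highest mean levels per length (129 and 127 RPKM) and Fgfr3 (9.68) and Atp1b2 (11.7) the lowest, whereas by the longest coding transcript Aldh1l1 was the lowest (15.2), followed by Fgfr3 and Atp1b2 (16.3 and 16.8).

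**Figure D5:**
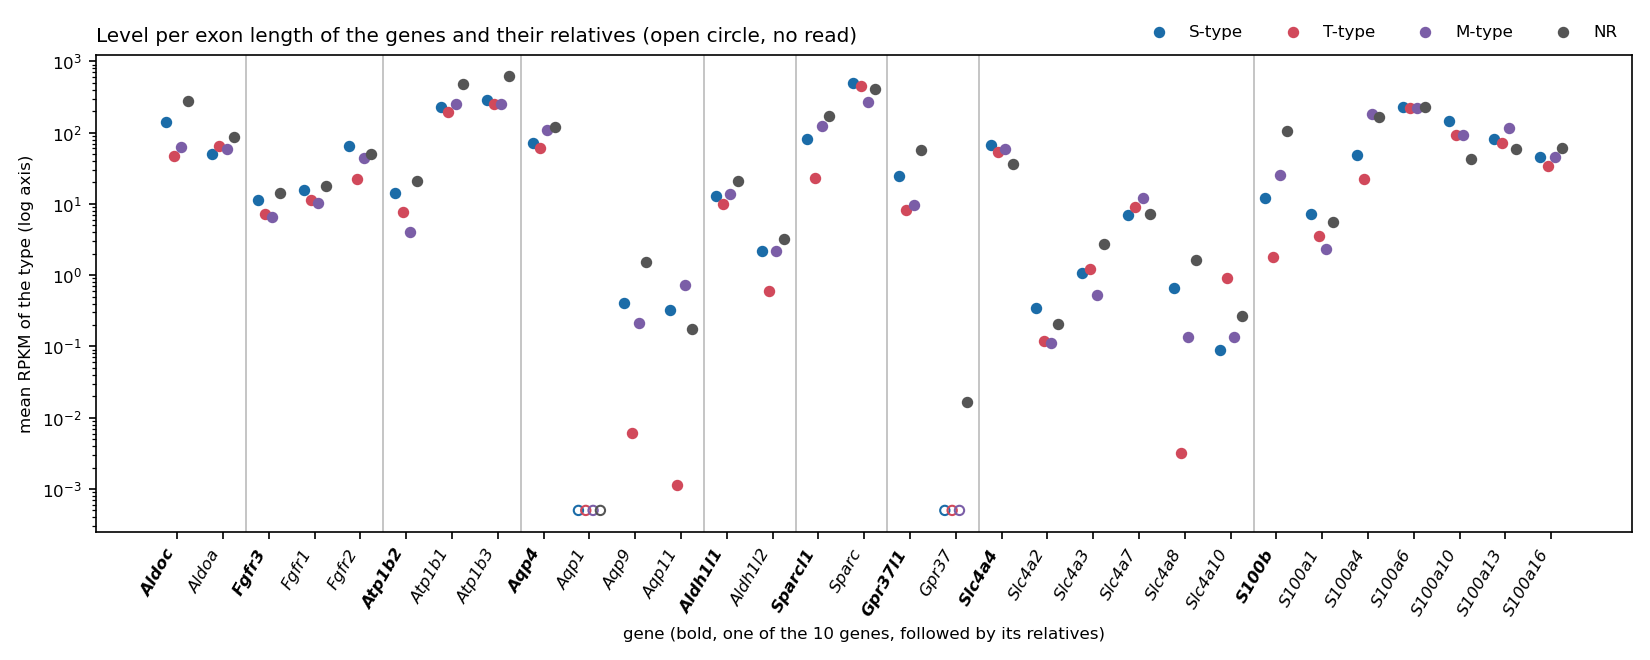
Mean RPKM over the cells of each type (vertical log axis, colours for the 4 types) of the genes with relatives in bold, each followed by those relatives (horizontal axis), with open circles at the foot for types with no read. Atp1b2 lies below Atp1b1 and Atp1b3 and Sparcl1 below Sparc in every type, whereas Aqp4 and Gpr37l1 lie above their relatives in every type.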

How the data were processed

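The authors trimmed the reads of each single-cell library, used STAR for alignment to GRCm38 and VERSE for exonic counts per gene; the labels also name HTSeq, and versions and the strand setting are not given in the sources used here. They deposited raw counts with 1 column per cell, made from RNA amplified in 2 rounds, and no molecular identifier tells copies of 1 molecule apart. A normalized count here is the count over a size factor, the median of ratios over the 3670 genes read in every cell. A type level is the mean over its cells, a level of 0 was set to the floor of 3 reads, and ratios were taken over 12719 genes read in at least 5 cells. The depth was 2937786 to 22131076 reads, and counting intervals are exact binomial at 95%. Lengths came from GENCODE vM21 (all exon bases of a gene). Since the labels name no animal or culture, edgeR 4.0.16 served for TMM scaling only and no gene was tested.

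All 10 genes are named, with some of their relatives and the 5 genes most correlated with their sum. The 3 genes with most reads are named for each other list except those of intermediate filaments and immature glia. Single cells, the lists' genes at 0 and the other genes named were chosen after their values were seen. The genes and lists were chosen with earlier results of these data known. Ratios were computed in Python 3.11.15 (pandas 2.3.3, NumPy 2.4.6, SciPy 1.17.1) and R 4.3.3. The ratio step was also run on simulated counts whose spread between cells was a fixed setting, not taken from these cells. That run therefore does not show how the step behaves where a single cell dominates a type. Alternatives were other scalings (CPM, TMM, thinning), medians and geometric means over cells, a pseudocount of 1, other filters, longest coding transcripts and each cell left out.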

Additional observations from a re-analysis of the deposited data

Results flagged for a closer look

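Single cells stood apart from the others of their type, by a gap that was large against the range of the type, in 8 of 44 sets of values (the 10 genes and their summed share in 4 types). The limits used flag about 1 in 20 sets by chance only where values are normally distributed. Normalized counts are skewed, so that rate does not apply here and the 8 cannot be set against it. Aqp4 was at 22853 in S-type cell 1, where the other S-type cells were at 419 to 5881, and at 22309 in T-type cell 3, where the others were at 7.25 to 7121. S100b was at 1808 in M-type cell 5 (others 0 to 22.97) and at 7536 in NR cell 2 (others 0 to 260). Fgfr3 was at 3419 in T-type cell 1 (others 162.3 to 795), Sparcl1 at 14106 in M-type cell 2 (others 154.5 to 3947) and Gpr37l1 at 5149 in NR cell 2 (others 12.0 to 1389). The summed share of reads was 0.457% in T-type cell 3, with the others at 0.0487% to 0.133%. T-type cell 3 had the fewest reads of the 22 cells and NR cell 2 the most genes with a read (13070).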

How the results depend on the processing

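The number of the 10 genes past 2-fold in T-type versus S-type was 2 and became 6 with CPM of the pooled reads, 4 with mean CPM, 4 with TMM factors, 4 with medians over cells, 6 with geometric means, 4 after thinning and, in an alternative chosen after seeing the data, 6 without the T-type cells 2 and 3 (size factors under 0.3); leaving out 1 cell at a time gave 2 to 4. With 1 cell left out the count ran from 3 to 6 in T-type versus NR, from 1 to 5 in S-type versus NR (6 with geometric means) and from 4 to 7 in M-type versus NR. In T-type versus NR it was 7 with medians over cells. Without the T-type cells 2 and 3 it was 8, all lower in the T-type. The number highest in NR, also added after seeing the data, was 4 with medians over cells and 6 to 9 with 1 cell left out. Ratios past 2-fold that changed sign in T-type versus NR were those of Slc4a4, at −0.19 with CPM of the pooled reads, −1.02 with medians, −0.86 with geometric means and −0.044 without T-type cell 3, in a range up to 1.29 with 1 cell left out. In S-type versus NR they were S100b (2.82 with medians) and Gpr37l1 (0.26 with medians), and with 1 cell left out they ranged from −3.57 to 1.504 for S100b, from −1.63 to 0.60 for Gpr37l1 and from −2.22 to 0.066 for Aldoc; in M-type versus NR, S100b ranged from −7.73 to 2.30. The cause was not tested. CPM of the pooled reads moved the median of all genes in T-type versus S-type from −0.07 to −0.55 and in T-type versus NR from −0.05 to −0.52, with 29.1% and 31.6% of the genes past 2-fold higher against 44.6% and 46.9%; relative to all genes the median of the 10 genes was then −0.61 and −1.18, against −0.25 and −0.89. With medians and geometric means over cells this relative median was 0.22 and 0.13 in T-type versus S-type. In T-type versus NR it was −0.87 and −0.19. The mean share of reads on the 10 genes moved by less than 1 SD in all 34 alternatives. Most of these could not have moved it further, since neither a median nor leaving out 1 cell can shift a mean by 1 SD. With 1 cell left out the mean lay between 0.215% and 0.284% in the S-type and between 0.100% and 0.182% in the T-type. It lay between 0.183% and 0.270% in the M-type and between 0.285% and 0.417% in NR. The median correlation between the genes lay between 0.25 and 0.35 with 1 cell left out, and the cells of Atp1b2 in M-type and NR stayed apart by CPM and TMM. No paired analysis was possible because the labels give no animal, culture or batch that cells of different types share.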

Other observations

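Several cells had much of some of the 10 genes and almost none of another. NR cell 4 had 4945 reads of Mlc1 and 3856 of Aqp4 beside 8 of Fgfr3 and 55 of Aldh1l1, M-type cell 2 had 20146 reads of Sparcl1 beside 237 of Slc4a4, and T-type cell 2 had 537 reads of Aldh1l1 beside 2 of Aqp4. M-type cell 1 had 14301 reads of Slc4a4 and 5407 of Mlc1 beside 0 of Aldoc and 2 each of Gpr37l1 and Atp1b2. These cells were chosen after their values were seen.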
